A study of Mus musculus with 4 samples.

Results

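The 10 genes described here encode proteins that carry lipids between retinal cells or move them across membranes: *Apoe*, *Clu*, *Abca1*, *Abca8a*, *Abcg1*, *Lpl*, *Fabp5*, *Fabp7*, *Scarb1* and *Ptgds*. They were given as a list of names, with earlier results of these data known, and all 10 were found among the 24322 gene symbols of the deposited expression tables. RNA was sequenced from mTFP-positive cells sorted from the retinas of 4 mice, each library from 1 mouse. The 2 control mice (numbers 7984 and 3911) were Raxflox/WT, the 2 *Rax* iCKO mice (numbers 7983 and 3914) were Raxflox/flox, and all 4 carried the Rlbp1-CreERT2 transgene and the reporter allele R26-CAG-LoxP-mTFP1. All 4 mice were given tamoxifen at P4 and their retinas were taken at P14, and the labels give 129S6 as the strain. The controls thus also carried 1 floxed *Rax* allele, the Cre, the reporter and the tamoxifen. The Cre is fused to a mutant estrogen receptor and driven by a promoter fragment of *Rlbp1*, a gene of Müller glia and of the pigment epithelium, so the sort can hold any cell in which that promoter has acted.

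Müller glia are known to make and secrete lipoprotein particles that carry cholesterol and other lipids to retinal neurons. ABC transporters in the glial membrane load cholesterol and phospholipid onto secreted apolipoproteins, and receptors on neurons and glia take the particles or their lipid up. Inside the cell, small fatty acid binding proteins carry fatty acids and other lipids through the cytosol, and nuclear receptors of the LXR family set the level of the exporters to the sterol content of the cell.

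Expression was measured as FPKM, fragments scaled by exon length and by the mapped fragments of the library, so levels of different genes are per length. The libraries held an estimated 9270000 to 12710000 mapped reads. *Rax* itself was at 189.1 and 181.4 FPKM in controls 7984 and 3911 and at 111.4 and 98.38 FPKM in *Rax* iCKO 7983 and 3914, a ratio of 0.566, with both *Rax* iCKO libraries below both controls. Its difference in limma, the linear model fitted across all 12363 genes with a mean of at least 1 FPKM, was -0.82 ± 0.21 (SE) on the log2(FPKM + 1) scale with an adjusted p of 1. FPKM are given per gene and do not separate the floxed exons from the rest. The libraries did not hold Müller glial RNA alone. Markers of Müller glia summed to 11530 and 9053 FPKM in controls 7984 and 3911 and to 7315 and 7313 FPKM in *Rax* iCKO 7983 and 3914, and 5 of the 12 markers, *Rlbp1* among them, had both *Rax* iCKO values below both control values, a pattern met by 14.1% of all genes tested. Rod markers summed to 1711 and 1761 FPKM in controls 7984 and 3911 and to 1231 and 1107 FPKM in *Rax* iCKO 7983 and 3914, with 8 of 10 markers below both controls in both *Rax* iCKO libraries. Bipolar cell markers summed to between 3758 and 8916 FPKM, of which *Pcp2* made up 64.1% on average, and 4 of the 9 were above both controls in both *Rax* iCKO libraries, against 15.4% of all genes tested. Fewer cells of a type and less RNA per cell cannot be told apart in these bulk libraries, and no value below is corrected for them. The plot of marker sums shows these levels by library.

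**Figure D1:**
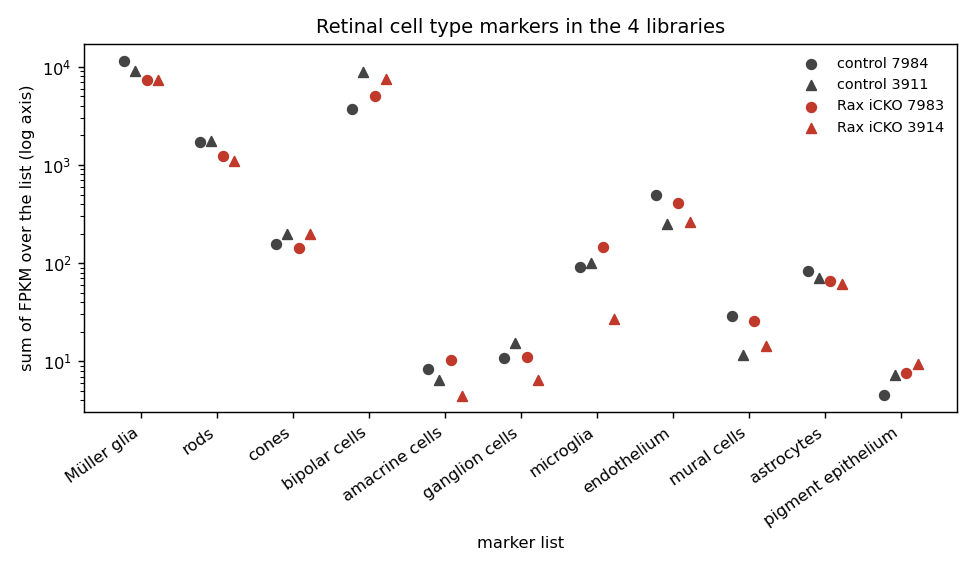
Sum of FPKM over fixed marker lists of 11 retinal cell types in each library (log axis); circles are mice 7983 and 7984, triangles mice 3911 and 3914, dark grey control and red *Rax* iCKO. The Müller glia sum is below both controls in both *Rax* iCKO mice, whereas the bipolar cell sum is higher in mice 3911 and 3914 than in mice 7983 and 7984.

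The members covered a wide range of levels, from *Apoe* at a mean of 4342 FPKM over the 4 libraries down to *Lpl* at under 1 FPKM. *Apoe* and *Clu* together made up 93.8% to 94.8% of the members' summed FPKM in each library. The 10 genes held 1.39% of all FPKM in control 7984, 0.943% in control 3911, 1.13% in *Rax* iCKO 7983 and 1.04% in *Rax* iCKO 3914. By mean level the order was *Apoe*, *Clu*, *Scarb1*, *Abca8a*, *Ptgds*, *Fabp5*, *Abcg1*, *Fabp7*, *Abca1* and *Lpl*. *Apoe* was 3.03 times the level of *Clu*, and *Clu* was 13.8 times that of *Scarb1*. The order held in all 4 libraries except in the middle: *Scarb1* lay above *Abca8a* in 2 of 4 libraries, *Abca8a* above *Ptgds* in 2 of 4, and *Ptgds* above *Fabp5* in 3 of 4, so these neighbours were not separated beyond the spread between libraries.

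**Figure D2:**
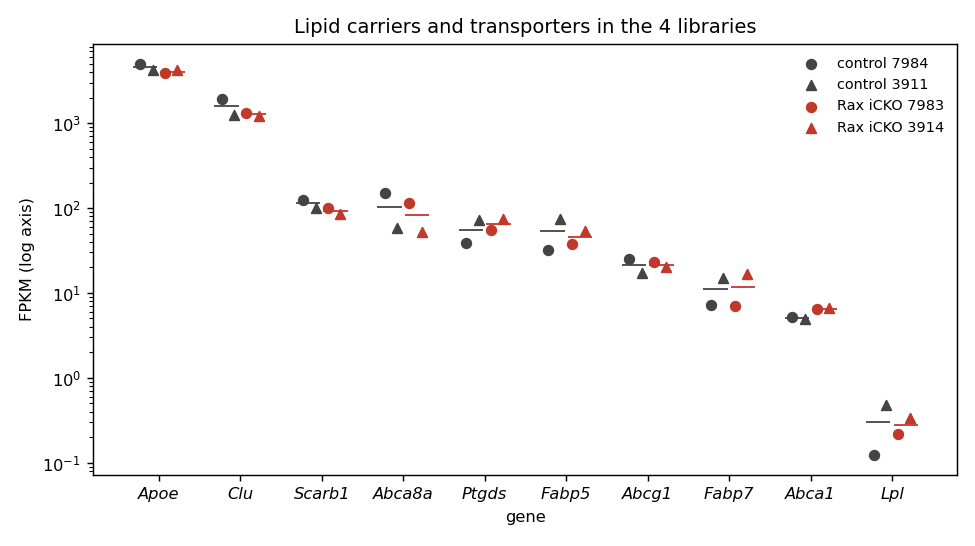
FPKM of the 10 members in each library (log axis), ordered by mean level; horizontal lines are group means of 2 libraries, circles are mice 7983 and 7984, triangles mice 3911 and 3914. For *Apoe*, *Scarb1* and *Abca1* the control (dark grey) and *Rax* iCKO (red) points do not overlap, whereas for *Abca8a*, *Fabp5*, *Fabp7* and *Ptgds* the circles and triangles lie apart.

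The stretches around the start sites are shown because the study gives TAATT as a predicted Rax-binding site, and AGGTCA is the core site of nuclear receptors such as LXR and RXR. RefSeq windows of 300 bases, from 250 before to 50 after a start site (GRCm38.p6), were at hand for 5 members, *Apoe* with 3 start sites and *Abca1*, *Abca8a*, *Fabp7* and *Ptgds* with 1 each. *Clu*, *Abcg1*, *Lpl*, *Fabp5* and *Scarb1* had no window. TAATT, or AATTA on the other strand, occurred in 5 of the 7 windows, at least 1 for each of the 5 members, and in 27.0% of all 32851 windows. AGGTCA, or TGACCT on the other strand, occurred in 1 of the 7, that of *Fabp7*, and in 16.3% of all windows. The sequences below read 5′ to 3′ on the strand of the gene, with the motif in capitals.
Apoe, chr7:19698519-19698619, minus strand, motif 173 bases before the third start site: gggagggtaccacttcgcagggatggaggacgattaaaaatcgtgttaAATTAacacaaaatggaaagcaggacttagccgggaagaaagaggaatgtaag
Abca1, chr4:53159877-53159905, minus strand, motif 3 bases after the start site: ggcaaaaaccagTAATTccgagggcgagc
Abca8a, chr11:110096106-110096187, minus strand, motif on both strands 222 bases before the start site: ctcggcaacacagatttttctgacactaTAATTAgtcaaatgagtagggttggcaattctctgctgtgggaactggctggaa
Abca8a, chr11:110095990-110096090, minus strand, motif 105 bases before the start site: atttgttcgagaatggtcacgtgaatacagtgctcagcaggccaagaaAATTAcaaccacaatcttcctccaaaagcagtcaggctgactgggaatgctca
Ptgds, chr2:25469832-25469933, minus strand, motif on both strands 136 bases before the start site: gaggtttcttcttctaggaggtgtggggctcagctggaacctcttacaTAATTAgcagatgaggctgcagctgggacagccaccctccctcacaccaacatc
Fabp7, chr10:57784927-57784955, plus strand, motif 17 bases after the start site: agggtttttgtgAATTAcggtggtgggta
Fabp7, chr10:57784704-57784805, plus strand, AGGTCA site 171 bases before the start site: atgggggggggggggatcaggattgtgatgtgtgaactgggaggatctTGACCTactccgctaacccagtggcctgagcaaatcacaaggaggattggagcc

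The *Ptgds* site and the *Abca8a* site 222 bases before the start read as the palindrome TAATTA, and the other *Abca8a* site did not. A match is a description of the letters in these windows and was not tested as a binding site.

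Between genotypes, no member passed the test. In limma on log2(FPKM + 1), 0 of the 9 members with a mean of at least 1 FPKM had an adjusted p under 0.05, where over all 12363 genes tested 1 gene (0.00809%) was called higher and 2 genes (0.0162%) lower in *Rax* iCKO. None of the 9 had an unadjusted p under 0.05 either, against 2.86% of all genes tested, and each had an adjusted p of 1. With 2 libraries a group, the smallest two-sided p an exact permutation test can give is 0.333. Both *Rax* iCKO libraries lay above both controls for 1 member, *Abca1*, and below both controls for 2 members, *Apoe* and *Scarb1*, and the genotypes overlapped for the other 6 tested. The same pattern was met by 15.4% of all genes in the higher and 14.1% in the lower direction, so the members' counts of 1 and 2 of 9 were near the background. The median log2 difference of the 9 members, *Rax* iCKO minus control, was -0.12, beside -0.004 over all genes tested. Of the 5 members with a TAATT match in the windows above, both *Rax* iCKO values of *Abca1* were above and those of *Apoe* below the controls, and *Abca8a*, *Fabp7* and *Ptgds* overlapped.

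Among the secreted carriers, *Apoe* encodes apolipoprotein E, the main apolipoprotein that glia load with cholesterol (chr7:19696109-19699188, minus strand, GRCm38). Its level was 5041 FPKM in control 7984 and 4232 FPKM in control 3911, and 3901 FPKM in *Rax* iCKO 7983 and 4193 FPKM in *Rax* iCKO 3914. *Apoe* was among the 4 most abundant genes of every library and the most abundant in *Rax* iCKO 7983. Both *Rax* iCKO values lay below both controls, but control 3911 and *Rax* iCKO 3914 were nearly level. The means were 4637 ± 572 FPKM (SD, n = 2) in controls and 4047 ± 207 FPKM (SD, n = 2) in *Rax* iCKO mice, a ratio of 0.873. The log2 difference in limma was -0.19 ± 0.48 (SE; 95% interval -1.37 to 0.99, adjusted p 1), and after quantile normalization it turned to 0.09. The interval includes 0.

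*Clu* encodes clusterin (apolipoprotein J), a secreted lipid-binding chaperone (chr14:65968483-65981547, plus strand). Its FPKM were 1951 and 1234 in controls 7984 and 3911 and 1326 and 1215 in *Rax* iCKO 7983 and 3914. One library, control 7984, stood above the other three, and the genotypes overlapped. Control and *Rax* iCKO means were 1593 ± 507 and 1270 ± 78.7 FPKM (SD, n = 2 each), with a log2 difference of -0.29 ± 0.39 (SE; 95% interval -1.25 to 0.67, limma, adjusted p 1). Most of that difference came from 1 pair of mice: mice 7983 and 7984 differed by -0.56, and mice 3914 and 3911 by -0.02. Without control 7984 the difference was 0.04, and after quantile normalization of the 4 libraries it was -0.003.

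*Ptgds* encodes the lipocalin-type prostaglandin D synthase, which both makes prostaglandin D2 and carries small lipophilic molecules such as retinoids (chr2:25466709-25470046, minus strand). It was at 38.37 and 71.38 FPKM in controls 7984 and 3911 and at 55.44 and 73.61 FPKM in *Rax* iCKO 7983 and 3914. The 2 libraries from mice 3911 and 3914 were the high ones, whatever the genotype. The log2 difference between genotypes was 0.28 ± 0.34 (SE; 95% interval -0.54 to 1.11, limma, adjusted p 1), and it was -0.16 without control 7984. Mice 7983 and 7984 differed by 0.52, and mice 3914 and 3911 by 0.04. *Ptgds* is also a gene of the pigment epithelium, whose markers summed to 4.567 and 7.227 FPKM in controls 7984 and 3911 and to 7.586 and 9.437 FPKM in *Rax* iCKO 7983 and 3914. Of the 9 pigment epithelium markers 7 were under 1 FPKM in every library, *Rpe65* reached at most 0.774 FPKM and *Mlana* was listed at 0 in all 4. *Ttr*, which made up 52.0% of the sum, was at 1.001 and 4.118 FPKM in controls 7984 and 3911 and at 2.492 and 7.365 FPKM in *Rax* iCKO 7983 and 3914, in the order of the *Ptgds* values. *Rgr*, the other marker that passed 1 FPKM, was at 1.850 and 1.448 FPKM in controls 7984 and 3911 and at 2.271 and 0.839 FPKM in *Rax* iCKO 7983 and 3914, in another order, and the part of pigment epithelium in the *Ptgds* values was not tested.

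Among the ABC transporters, *Abca1* encodes the exporter that transfers cholesterol and phospholipid to lipid-poor apolipoproteins such as ApoE (chr4:53030787-53159895, minus strand). *Abca1* was at 5.148 and 4.879 FPKM in controls 7984 and 3911 and at 6.449 and 6.557 FPKM in *Rax* iCKO 7983 and 3914. The groups did not overlap, and each group was tight, with means of 5.01 ± 0.190 and 6.50 ± 0.0757 FPKM (SD, n = 2 each) and a ratio of 1.30. The log2 difference of 0.32 ± 0.24 (SE; 95% interval -0.27 to 0.91) nevertheless had an unadjusted p of 0.232 and an adjusted p of 1 in limma, which borrows the spread of other genes at the same level. Mice 7983 and 7984 differed by 0.28, and mice 3914 and 3911 by 0.36. These FPKM rest on an estimated 460 to 660 reads per library.

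Over the 7049 genes with a mean of at least 10 FPKM, the profiles most like that of *Abca1* over the 4 libraries, each centred on its own mean, were those of *Slc38a2*, *Flcn* and *D15Ertd621e*, with mean absolute differences of 0.0115, 0.016 and 0.0163 log2 units. *Slc38a2*, a neutral amino acid transporter, was at 15.9 and 15.46 FPKM in controls 7984 and 3911 and at 20.01 and 20.04 FPKM in *Rax* iCKO 7983 and 3914. With 4 libraries such likeness is a description only.

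*Abcg1* encodes a transporter that moves sterols toward lipoprotein particles that already hold lipid (chr17:31057675-31117988, plus strand, with the small gene *Gm25447* inside it on the same strand). It was at 25.05 and 17.38 FPKM in controls 7984 and 3911 and at 22.84 and 20.30 FPKM in *Rax* iCKO 7983 and 3914. Both *Rax* iCKO values lay between the 2 controls. The log2 difference was 0.04 ± 0.25 (SE; 95% interval -0.57 to 0.66, limma, adjusted p 1). The 2 pairs of mice gave opposite signs, -0.13 for mice 7983 and 7984 and 0.21 for mice 3914 and 3911.

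*Abca8a* encodes a full-length transporter of the A subfamily that lies in a cluster with *Abca8b* and *Abca9* (chr11:110025634-110095978, minus strand). It varied most among the members tested: 150.0 FPKM in control 7984, 58.42 FPKM in control 3911, 113.9 FPKM in *Rax* iCKO 7983 and 51.55 FPKM in *Rax* iCKO 3914. The libraries from mice 7983 and 7984 were the high ones, with a mean of 131.9 FPKM against 54.99 FPKM for mice 3911 and 3914, a 2.40-fold difference. Between genotypes the values overlapped, with a log2 difference of -0.29 ± 0.54 (SE; 95% interval -1.61 to 1.04, limma, adjusted p 1). Mice 7983 and 7984 differed by -0.395, and mice 3914 and 3911 by -0.177. The difference between genotypes was 0.39 without control 7984 and 0.28 without *Rax* iCKO 3914, fits in which the pairs are not balanced. How the authors' counting split reads shared with close paralogs is not given in the sources used here.

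*Scarb1* encodes scavenger receptor class B type 1, the HDL receptor, which takes up cholesteryl esters and carotenoids (chr5:125277087-125341094, minus strand, sharing its strand with the overlapping gene *Gm42633*). It was at 126.0 and 101.5 FPKM in controls 7984 and 3911 and at 100.1 and 86.13 FPKM in *Rax* iCKO 7983 and 3914. The groups did not overlap, though control 3911 and *Rax* iCKO 7983 were close to each other. Control and *Rax* iCKO means were 114 ± 17.3 and 93.1 ± 9.86 FPKM (SD, n = 2 each), a ratio of 0.818. The log2 difference was -0.28 ± 0.23 (SE; 95% interval -0.84 to 0.27), with an unadjusted p of 0.261 and an adjusted p of 1 in limma. After quantile normalization the *Scarb1* and *Apoe* groups overlapped and only *Abca1* of the members still had its groups apart. Beside these values, the median log2 difference was -0.43 over the Müller glia markers (11 of 12 below 0), -0.56 over the rod markers (10 of 10 below 0) and 0.31 over the bipolar cell markers (8 of 9 above 0). The part of these marker differences in the *Scarb1* and *Apoe* values was not tested.

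The fatty acid binding proteins were set apart by pair of mice rather than by genotype. *Fabp7* encodes the brain lipid binding protein of radial glia and astrocytes, which prefers long polyunsaturated fatty acids (chr10:57784881-57788450, plus strand). It was at 7.143 and 15.18 FPKM in controls 7984 and 3911 and at 6.990 and 16.66 FPKM in *Rax* iCKO 7983 and 3914. Within each pair the genotypes were nearly level, with log2 differences of -0.03 and 0.13, whereas the pair 3911 and 3914 was 2.25 times as high as the pair 7983 and 7984. The log2 difference between genotypes was 0.05 ± 0.49 (SE; 95% interval -1.14 to 1.24, limma, adjusted p 1). It was -0.45 without control 7984 and -0.52 without *Rax* iCKO 3914.

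*Fabp5* encodes the epidermal fatty acid binding protein (chr3:10012548-10016607, plus strand). It was at 32.38 and 74.09 FPKM in controls 7984 and 3911 and at 38.04 and 53.25 FPKM in *Rax* iCKO 7983 and 3914. Both *Rax* iCKO values lay between the controls, and the pair 3911 and 3914 was 1.81 times as high as the other pair. The log2 difference between genotypes was -0.12 ± 0.41 (SE; 95% interval -1.12 to 0.88, limma, adjusted p 1), with opposite signs in the pairs, 0.23 for mice 7983 and 7984 and -0.47 for mice 3914 and 3911. It was 0.46 without control 3911 and 0.12 without *Rax* iCKO 7983. The annotation also holds a related gene, *Fabp5l2*, so reads may be shared with it.

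*Lpl*, lipoprotein lipase, frees fatty acids from the triglycerides of lipoproteins (chr8:68880491-68907448, plus strand). It was at 0.1224 and 0.4756 FPKM in controls 7984 and 3911 and at 0.2201 and 0.3345 FPKM in *Rax* iCKO 7983 and 3914. These values correspond to an estimated 6, 17, 8 and 12 reads, the genotypes overlapped, and the gene was left out of the main test for its mean under 1 FPKM. In the fit without that filter its log2 difference was -0.01 ± 0.16 (SE, limma, adjusted p 1).

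**Figure D3:**
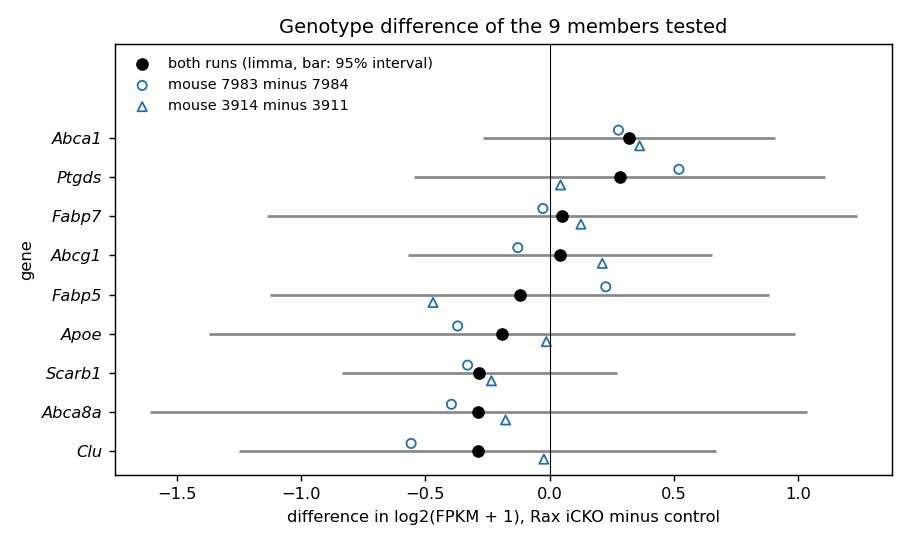
Difference in log2(FPKM + 1), *Rax* iCKO minus control, for the 9 members tested; black points are limma estimates from 4 libraries with 95% intervals as bars, open circles the difference between mice 7983 and 7984 and open triangles that between mice 3914 and 3911. Every interval includes 0, and the pairs fall on opposite sides of 0 for *Abcg1*, *Fabp5* and *Fabp7*.

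Across the members, the pair of mice separated more genes than the genotype did. The 2 pairs with neighbouring numbers, 7983 with 7984 and 3911 with 3914, each hold 1 control and 1 *Rax* iCKO mouse. The labels do not say what the numbers mean. For 7 of the 10 members (*Clu*, *Abca8a*, *Abcg1*, *Lpl*, *Fabp5*, *Fabp7* and *Ptgds*) the pairs did not overlap. Among the 9 members tested the pairs did not overlap for 6, where 55.9% of all genes tested had this pattern, so the members were near the background here too. *Clu*, *Abca8a* and *Abcg1* were higher in mice 7983 and 7984, by 1.34-fold, 2.40-fold and 1.27-fold, and *Ptgds*, *Fabp5* and *Fabp7* were higher in mice 3911 and 3914, by 1.55-fold, 1.81-fold and 2.25-fold. The 3 remaining members, *Apoe*, *Abca1* and *Scarb1*, were those whose genotypes did not overlap. Each pair holds both genotypes, so such a gene cannot also have its pairs apart, and the design fixes that these 3 are among the remaining. Within the pairs, the genotype difference had the same sign in both for *Apoe*, *Clu*, *Abca1*, *Abca8a*, *Scarb1* and *Ptgds* and opposite signs for the other 4. For *Apoe*, *Abca1* and *Scarb1* the same sign is fixed beforehand by groups that do not overlap. The share of all genes with the same sign in both pairs is not given here. Bipolar cell markers moved with the pairs as well, summing to 3758 and 5090 FPKM in mice 7984 and 7983 and to 8916 and 7447 FPKM in mice 3911 and 3914, as did the endothelial sum, at 494.9 and 410.7 FPKM against 248.9 and 263.9 FPKM. *Kdr* made up 92.9% of that endothelial sum. *Flt1*, at 13.23 to 25.13 FPKM, was also higher in mice 7983 and 7984, whereas *Esam*, at 4.179 to 6.361 FPKM, was higher in mice 3911 and 3914. *Cldn5* reached 1.773 FPKM in control 3911, and the other 4 of the 8 markers (*Pecam1*, *Cdh5*, *Tie1* and *Emcn*) stayed under 1 FPKM in every library. The part of bipolar cells and endothelium in the members' levels was not tested.

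**Figure D4:**
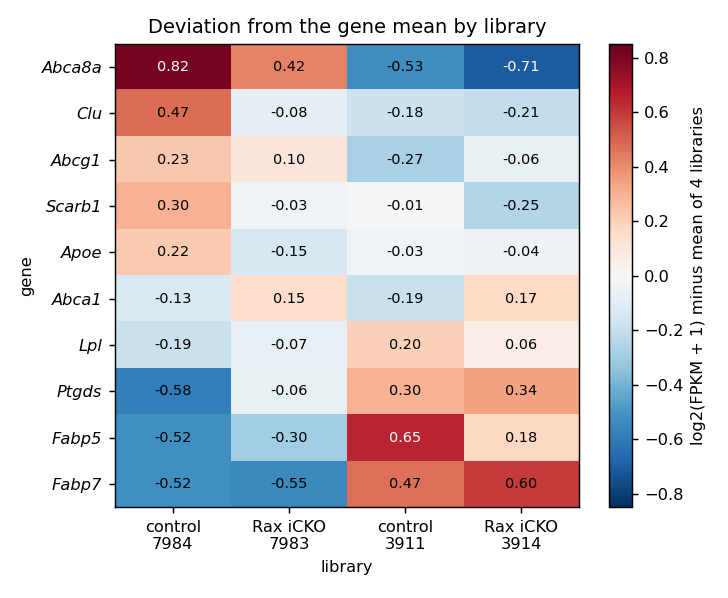
Deviation of each member's log2(FPKM + 1) from its mean over the 4 libraries, with the libraries ordered by pair of mouse numbers and the genes by the difference between pairs. *Abca8a* (0.82 and 0.42 in mice 7984 and 7983) and *Fabp7* (0.47 and 0.60 in mice 3911 and 3914) mark the opposite ends, and *Abca1* is positive in both *Rax* iCKO libraries and negative in both controls.

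Microglia and astrocytes also express *Apoe*, and the sums of their markers were low beside that of Müller glia. The sum of 12 microglia markers was 91.39 and 100.1 FPKM in controls 7984 and 3911 and 146.5 and 26.85 FPKM in *Rax* iCKO 7983 and 3914. The 6 astrocyte markers summed to 83.54 and 69.80 FPKM in controls 7984 and 3911 and to 65.87 and 61.09 FPKM in *Rax* iCKO 7983 and 3914. *Aldh1l1*, with 42.1%, and *Slc38a1* made up most of that astrocyte sum, while *Pax2*, a defining marker of retinal astrocytes, was listed at 0 in 3 libraries and at 0.0381 FPKM in control 3911. The part of these cells in the *Apoe* values was not tested.

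The wider lipid pathway was described over 101 other genes in 8 lists of receptors, apolipoproteins, ABC transporters, lipases, fatty acid and sterol carriers, nuclear receptors and prostaglandin enzymes. Of these, 63 had a mean of at least 1 FPKM and 7 were listed at 0 in every library. In limma 0 of the 63 had an adjusted p under 0.05 and 3 had an unadjusted p under 0.05 (*Apom*, *Nr1h3* and *Abcg2*), beside 2.86% of all genes tested. Both *Rax* iCKO libraries lay above both controls for 8 and below both for 9, and the other 46 overlapped. The groups were thus apart for 27.0% of the 63 genes, against 29.5% of all genes tested, so the genes described one by one below come from a count near the background. Their median log2 difference was -0.08, close to the -0.12 of the members. All values below carry adjusted p-values of 1 in limma.

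Among the nuclear receptors and LXR targets, *Nr1h3*, which encodes LXR alpha, a sterol sensor that drives *Abca1* and *Abcg1*, was at 0.448 and 1.009 FPKM in controls 7984 and 3911 and at 2.381 and 1.809 FPKM in *Rax* iCKO 7983 and 3914, with a log2 difference of 0.85 ± 0.32 (SE, unadjusted p 0.0382) at a mean level close to the 1 FPKM filter. *Nr1h2*, which encodes LXR beta, was far more abundant and overlapped between genotypes, at 32 and 39.13 FPKM in controls and 33.69 and 32.31 FPKM in *Rax* iCKO (-0.098 ± 0.21). Of the LXR targets in the list, *Mylip*, a ubiquitin ligase for lipoprotein receptors, was at 6.968 and 7.546 FPKM in controls and 8.637 and 8.290 FPKM in *Rax* iCKO (0.20 ± 0.23), with the *Rax* iCKO values above the controls, whereas those of *Srebf1*, a regulator of fatty acid synthesis, were below. *Nr1h2* and *Mylip* were added after their values were seen. *Srebf1* was the most abundant gene of its list, at 66.02 and 59.00 FPKM in controls and 48.20 and 50.30 FPKM in *Rax* iCKO (-0.34 ± 0.20). *Abcg1* lay between the controls, as given above.

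Among the other ABC transporters, *Abcg4*, a close relative and partner of *Abcg1* in sterol export, was at 19.89 and 10.56 FPKM in controls 7984 and 3911 and at 23.02 and 21.58 FPKM in *Rax* iCKO 7983 and 3914 (0.58 ± 0.32). *Abcd2*, a peroxisomal importer of very long chain acyl-CoA, was at 9.891 and 12.78 FPKM in controls and 16.00 and 16.19 FPKM in *Rax* iCKO (0.48 ± 0.23). Both were higher in *Rax* iCKO libraries, and the groups did not overlap. *Abcg2*, an exporter of drugs and porphyrins found in capillary endothelium and in stem cells, was the 1 gene of this list with both *Rax* iCKO libraries below both controls, at 38.73 and 45.04 FPKM in controls and 28.98 and 23.05 FPKM in *Rax* iCKO (-0.67 ± 0.22, unadjusted p 0.0233). The most abundant gene of the list, the peroxisomal transporter *Abcd3*, overlapped between genotypes at 45.11 to 58.84 FPKM.

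Among the lipoprotein receptors, *Vldlr*, which binds ApoE and reelin, was at 7.740 and 7.379 FPKM in controls 7984 and 3911 and at 9.086 and 11.27 FPKM in *Rax* iCKO 7983 and 3914 (0.38 ± 0.24). Its groups did not overlap. *Lrpap1*, a chaperone of this receptor family and the most abundant of the list, was between 142.2 and 161.3 FPKM, with both *Rax* iCKO libraries just below both controls.

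The apolipoproteins beside *Apoe* and *Clu* were few, with 3 of 11 at a mean of at least 1 FPKM. *Apoc1*, an exchangeable apolipoprotein encoded next to *Apoe*, was the most abundant, at 58.92 and 84.42 FPKM in controls 7984 and 3911 and at 44.14 and 64.34 FPKM in *Rax* iCKO 7983 and 3914, and overlapped. *Apom*, which carries sphingosine-1-phosphate on HDL, had the largest difference of all 63 genes, at 1.529 and 4.405 FPKM in controls and 1.031 and 0.209 FPKM in *Rax* iCKO (-1.24 ± 0.47, unadjusted p 0.0395) and a mean level close to the 1 FPKM filter.

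Of the fatty acid genes, *Dbi*, the acyl-CoA binding protein, was far the most abundant, at 2777 and 3499 FPKM in controls 7984 and 3911 and at 1824 and 2167 FPKM in *Rax* iCKO 7983 and 3914 (-0.65 ± 0.42). Its level was between those of *Apoe* and *Clu*, and its groups did not overlap. *Nceh1*, which hydrolyses stored cholesteryl esters, was at 8.309 and 9.755 FPKM in controls and 12.85 and 12.15 FPKM in *Rax* iCKO (0.43 ± 0.23). The leading genes of the remaining lists, the sterol carrier *Scp2* (123.5 to 185.1 FPKM) and the monoglyceride lipase *Mgll* (35.82 to 55.92 FPKM), overlapped between genotypes. *Ptges3*, a co-chaperone also described as a prostaglandin E synthase, was at 95.37 and 116.1 FPKM in controls and 94.52 and 83.78 FPKM in *Rax* iCKO, with the groups apart by less than 1 FPKM.

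**Figure D5:**
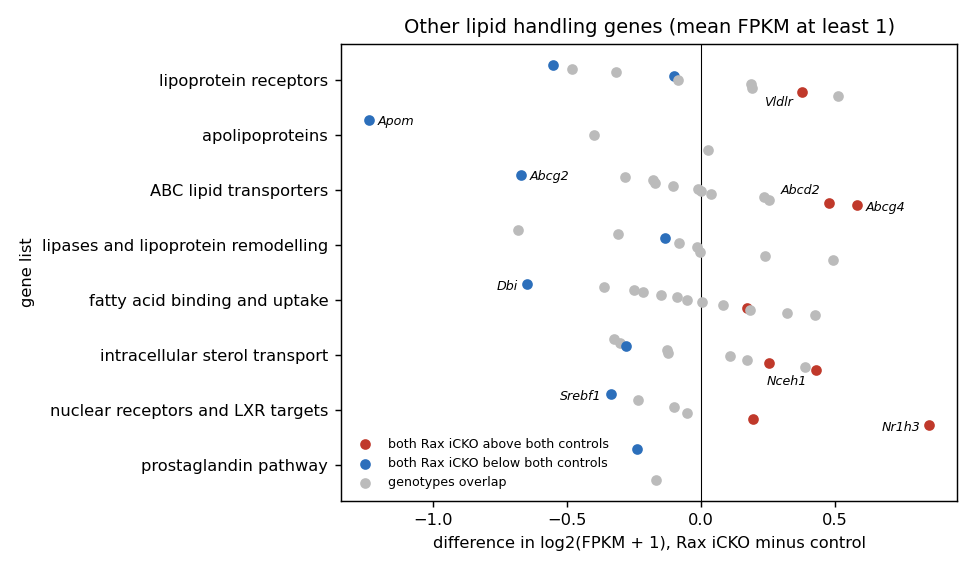
Difference in log2(FPKM + 1), *Rax* iCKO minus control, of the 63 other lipid handling genes with a mean of at least 1 FPKM, by list; red and blue points are genes whose *Rax* iCKO libraries both lie above or below both controls, grey points overlap. The 8 red and 9 blue points are spread over the lists, and the points with names are apart genes described in the text.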

How the data were processed

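The authors sorted mTFP-positive retinal cells and sequenced single-end reads. Per the submitters' processing notes, reads were mapped to mm10 with TopHat2 2.1.1, Bowtie2 2.2.8 and SAMtools 0.1.18, with Cuffdiff 2.2.1 for expression; the strand setting and the annotation are not given in the sources used here. The authors deposited 1 FPKM value per gene and library, used here without further scaling. Since FPKM are relative to a library's mapped reads, large changes of abundant genes move all other values. The paper and the labels name different RNA isolation kits and tool versions.

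Depth was estimated from the whole-read steps of low FPKM values: in 91.1% of 2310 genes under 0.5 FPKM, every value lay within a tolerance of a whole number of reads (0.035 reads at 1 read, rising to 0.0871 at 20, the highest number allowed), and 474 genes with a known transcript length then gave the depth. These numbers are estimates, no interval was drawn from them and no count test was run.

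The genotypes were compared on the log2(FPKM + 1) scale by limma 3.58.1 (R 4.3.3, moderated variance with an intensity trend), using the 12363 genes whose mean FPKM over the 4 libraries reached 1, with Benjamini-Hochberg adjustment over all of them. Fold changes on this scale understate those of low genes. Exact permutation tests used scipy 1.17.1. In limma, SE and p-values rest on the spread between 2 mice a group and on that of other genes at a like level. The SE of *Apoe* was 0.48 with the trend and 0.23 without it. The limma fit without a block was tested on simulated data, with no difference between pairs and with planted differences larger than that of any member. Gene coordinates are from GENCODE vM21 (GRCm38) and promoter windows from RefSeq (GRCm38.p6). Alternatives were quantile normalization, libraries scaled to equal medians, pseudocount 0.1, no filter, a mean of at least 5 FPKM, variances fitted without the trend, a replicate block by neighbouring mouse numbers, and leaving out each mouse.

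The members and lists were chosen with earlier results of these data known. Named beside the members were, in each pathway list, the gene of highest mean FPKM, the 10 genes with the largest differences among those whose genotypes did not overlap (1 of them is not reported here), *Rax*, and the 3 genes most like *Abca1*, the member with the largest difference in this fit, though not under every alternative. The description by pairs of mice and the stretches of promoter shown were chosen after their values were seen.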

Additional observations from a re-analysis of the deposited data

How the results depend on the processing

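No member and none of the other lipid handling genes was called in limma under any alternative run. The count of called genes over the whole table moved: 3 in the fit reported, 0 with no filter, 0 with a mean of at least 5 FPKM, 6 with equal medians and between 17 and 20 without 1 mouse, where the lone library of a group is assumed to vary like the others. Quantile normalization left 1 member with its groups apart (*Abca1*) in place of 3, turned *Apoe* to 0.09, brought *Clu* from -0.29 to -0.003 and turned the members' median to 0.022. With no filter 27 pathway genes had their groups apart in place of 17, since more genes were counted. Without 1 mouse the groups of 4 to 8 members and of 30 to 48 pathway genes were apart, since 1 library overlaps less easily than 2. The members' median then ran from -0.209 to -0.039 and the pathway median from -0.211 to 0.095, above 0 without control 7984 (0.095) and without *Rax* iCKO 3914 (0.029).

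Leaving out a mouse turned the log2 difference of 6 members, the 6 tested members whose pairs of mice did not overlap. Without 1 mouse the pairs are no longer balanced between genotypes, so the difference between pairs enters that between genotypes. Within the pairs, *Clu*, *Abca8a* and *Ptgds* had the same sign in both. The ranges were -0.62 to 0.04 for *Clu*, -0.96 to 0.39 for *Abca8a*, -0.21 to 0.29 for *Abcg1* (-0.21 without control 3911, -0.039 without *Rax* iCKO 7983), -0.71 to 0.46 for *Fabp5*, -0.52 to 0.62 for *Fabp7* and -0.16 to 0.72 for *Ptgds*. *Apoe* (-0.32 to -0.07), *Abca1* (0.29 to 0.35) and *Scarb1* (-0.44 to -0.13) kept their direction, which groups that do not overlap fix beforehand. The pairing of mice 7983 with 7984 and of 3911 with 3914 rests on their numbers, with 2 pairs, and the correlation of log2(FPKM + 1) over 12363 genes (genes are no replicates) was 0.970 within each pair and 0.947 to 0.955 between mice of different pairs. With these pairs as a replicate block limma called 71 genes and 0 members, whose adjusted p ran from 0.332 to 0.930. *Lpl* rests on under 20 estimated reads in each library.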
